A study of Danio rerio with 3 samples.

Results

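The metallothionein genes mt2 (ENSDARG00000041623) and mtbl (ENSDARG00000102051) were followed across 3 droplet single-cell libraries of zebrafish (Danio rerio) brain. They were chosen by symbol in the deposited gene table and are 2 of its 32057 genes. The study asked how zinc acts on the brain. It holds 1 library of each treatment: Zn15 and Zn10, both zinc treatments, and Ctrl, the control. What the numbers in these names count, the route and length of exposure, strain, age and sex of the fish, and how many fish each library pools are not stated in the labels used here. With 1 library a treatment no test across samples is possible, so every value compares these libraries and not the conditions. Fish, dissociation, library preparation and treatment cannot be told apart.

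Metallothioneins are small, cysteine-rich proteins that bind zinc and copper ions. They buffer the free zinc of a cell and can release it again. When zinc in a cell rises, the transcription factor MTF1, the product of mtf1, binds metal response elements in metallothionein promoters and switches the genes on; the same genes also answer to glucocorticoids and oxidative stress. In the mammalian brain, astrocytes and ependymal cells are well-known sources of metallothioneins, and in fish brain the radial glia take over many astrocyte tasks.

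Each captured RNA molecule was tagged with a unique molecular identifier (UMI), and all molecules of 1 droplet with the same barcode. The Zn15 library held 1634806 UMIs in 5154 barcodes, the Zn10 library 974866 in 2850 and the Ctrl library 1698707 in 5679. Depth was low, with medians of 255, 271 and 240 UMIs per barcode in Zn15, Zn10 and Ctrl. The nuclear RNA malat1 took 32.3%, 27.0% and 29.3% of UMIs in Zn15, Zn10 and Ctrl, and mitochondrial RNA between 0.0913% and 0.211%, so barcodes are not called whole cells here. At least 2 different markers of 1 brain cell class were found in 63.2%, 66.1% and 63.6% of the barcodes of Zn15, Zn10 and Ctrl, and the erythrocyte and ciliated or ependymal classes had 0 barcodes in every library. Zn15 and Ctrl had 8 barcode sequences in common, Zn10 and Ctrl 6, and Zn15 and Zn10 4. Of the last 4, 3 had an mt2 UMI in at least 1 of these libraries, with 2 mt2 UMIs in Zn15 and 1 in Zn10 over all of them.

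mt2 was lower in both zinc libraries than in the control library, by UMIs and by the share of barcodes that held one. It was counted in 667 UMIs in Zn15, 466 in Zn10 and 1522 in Ctrl. Scaled to the library total as CPM, UMIs per 1000000, that was 408 CPM in Zn15 (95% interval 378 to 440), 478 CPM in Zn10 (436 to 523) and 896 CPM in Ctrl (852 to 942). The intervals of both zinc libraries lay below that of the Ctrl library. The CPM ratio was 0.455 for Zn15 over Ctrl (0.415 to 0.499; log2 -1.13) and 0.534 for Zn10 over Ctrl (0.480 to 0.592; log2 -0.91). All such intervals cover counting error only, and since mt2 UMIs come clustered in few barcodes they are too narrow even for that.

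Among the genes with at least 20 UMIs over both libraries, 14.2% were at least 1.5-fold lower and 11.4% at least 1.5-fold higher in Zn15 than in Ctrl. For Zn10 over Ctrl, 10.7% were at least 1.5-fold lower and 16.4% at least 1.5-fold higher. mt2 was therefore in a lower tail that many genes share. Low counts fill much of that tail. Among the genes with at least 500 UMIs over both libraries, 4 of 945 had a Zn15 over Ctrl ratio as low as that of mt2 or lower, mt2 included. For Zn10 over Ctrl it was 18 of 776.

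The Zn15 and Zn10 libraries stood close to each other in mt2, and their order depended on the measure. The CPM ratio was 0.854 for Zn15 over Zn10 (0.757 to 0.963; log2 -0.23), in a comparison in which 18.5% of genes were at least 1.5-fold lower and 9.11% at least 1.5-fold higher. The shift by which median-of-ratios scaling differs from scaling by library total was -0.16 on the log2 scale there, -0.03 for Zn15 over Ctrl and 0.13 for Zn10 over Ctrl. By share of barcodes the order was the other way: 6.62% of Zn15 barcodes held an mt2 UMI (5.95 to 7.33), 5.44% of Zn10 barcodes (4.63 to 6.34) and 10.5% of Ctrl barcodes (9.74 to 11.4). Scaling by median-of-ratios size factors turned the balance of 1.5-fold calls over all genes as well. The lower calls made up 39.5% of the calls for Zn10 over Ctrl by library total and 58.2% by median of ratios, and 67.0% and 43.4% for Zn15 over Zn10.

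**Figure D1:**
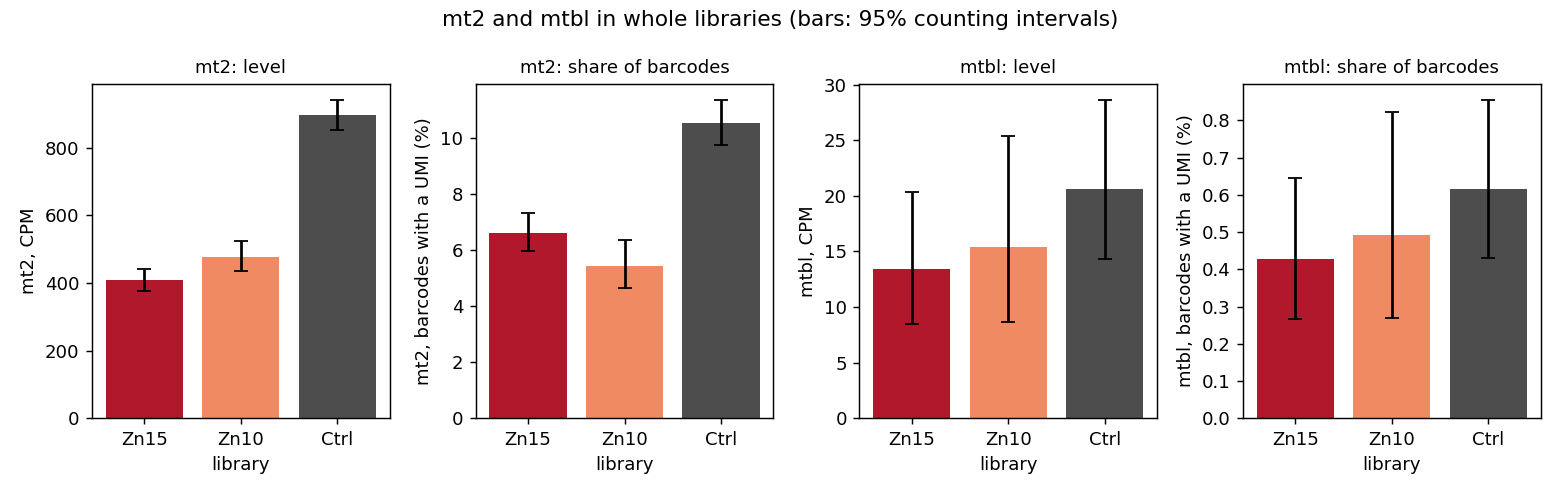
Level in CPM and share of barcodes with at least 1 UMI (%) of mt2, the 2 panels on the left, and mtbl, the 2 panels on the right, in the Zn15, Zn10 and Ctrl libraries; error bars are 95% counting intervals. The mt2 bars of Zn15 and Zn10 lie below the Ctrl bar (408 and 478 against 896 CPM), while the mtbl intervals of the 3 libraries overlap.

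The zinc libraries differed in how the share of positive barcodes and the mt2 UMIs in each of them stood to Ctrl. These 2 parts make up the mt2 UMIs per barcode and not the CPM. In Zn15, 341 barcodes held 1.96 mt2 UMIs each on average; in Zn10, 155 barcodes held 3.01; in Ctrl, 598 barcodes held 2.55. Zn15 was thus below Ctrl in both parts, with a ratio of 0.628 in the share of positive barcodes (0.548 to 0.719) and 0.769 in UMIs per positive barcode. Zn10 was below Ctrl in the share of positive barcodes only, with a ratio of 0.516 (0.430 to 0.617), and above it in UMIs per positive barcode, with a ratio of 1.18. The UMIs per positive barcode were not corrected for depth, and their ratios have no interval. Median depth was 255, 271 and 240 UMIs in Zn15, Zn10 and Ctrl, and its part in the 1.18 was not tested. The share of positive barcodes depends on depth, so it was also taken after thinning each barcode to 200 UMIs, which left out 1690, 824 and 2059 shallower barcodes of Zn15, Zn10 and Ctrl. The thinned shares were 4.73% in Zn15, 4.05% in Zn10 and 9.34% in Ctrl, which are ratios of 0.507 (0.418 to 0.613) for Zn15 over Ctrl and 0.433 (0.336 to 0.553) for Zn10 over Ctrl. At equal depth the share of mt2-positive barcodes was thus also below Ctrl in both zinc libraries. The intervals of the thinned and unthinned ratios overlapped, and the thinned ratios came without the shallower barcodes.

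Most positive barcodes held 1 mt2 UMI: 233 of 341 in Zn15, 95 of 155 in Zn10 and 364 of 598 in Ctrl. A small number carried much of the total. Barcodes with 5 or more mt2 UMIs numbered 23 in Zn15, 23 in Zn10 and 71 in Ctrl, and they held 33.6%, 59.7% and 48.6% of the mt2 UMIs of Zn15, Zn10 and Ctrl. The 50% of mt2 UMIs in the richest barcodes sat in 58 barcodes in Zn15, 15 in Zn10 and 77 in Ctrl. The highest barcode of each library held 26 mt2 UMIs in Zn15, 34 in Zn10 and 38 in Ctrl. The Zn10 total therefore rested on the fewest barcodes, in the library with the fewest barcodes. Without the highest 1% of barcodes by mt2 in Zn10 and in Ctrl, the log2 ratio of Zn10 over Ctrl was -1.56. That 1% is of all barcodes, so it took out 29 of 155 positive barcodes in Zn10 and 57 of 598 in Ctrl. These are unlike parts of the positive barcodes, so a lower ratio is partly built in.

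Such concentration was unusual for a gene of this abundance. In genes with 0.5 to 2 times the UMIs of mt2 in the same library, the highest 1% of barcodes held a median of 22.3% of the UMIs in Zn15, 21.0% in Zn10 and 15.9% in Ctrl. The share of mt2 was more than 2 times these medians in every library, at 48.3%, 64.4% and 44.0%. More concentrated than mt2 were 12 of 561 such genes in Zn15, 3 of 514 in Zn10 and 3 of 198 in Ctrl. Among these were il1b, which encodes an inflammatory cytokine, in Zn15 and Zn10, and cx43, which encodes a gap junction protein of glia, in Zn10 and Ctrl.

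**Figure D2:**
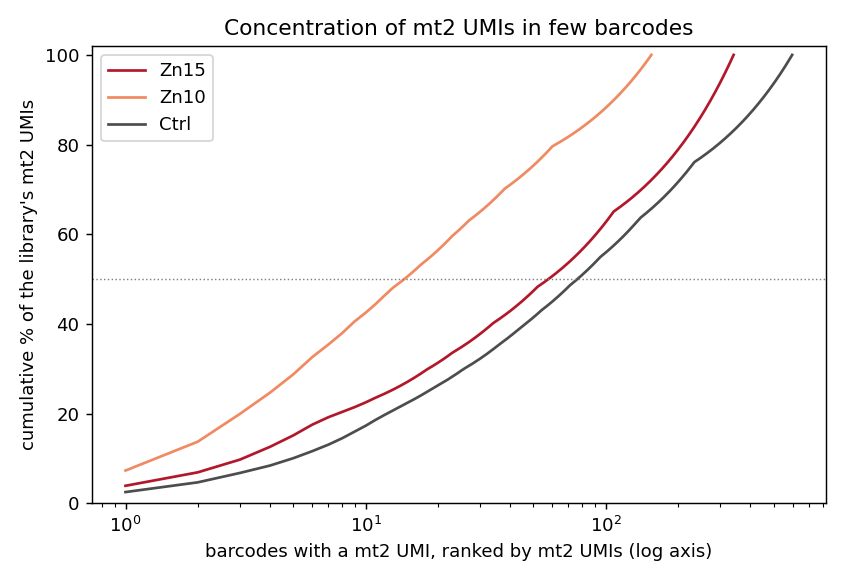
Cumulative percentage of a library's mt2 UMIs (y axis) over its mt2-positive barcodes ranked from the most to the fewest mt2 UMIs (x axis, log scale), for Zn15, Zn10 and Ctrl; the dotted line marks 50%. The Zn10 curve climbs first and crosses the line at 15 barcodes, against 58 in Zn15 and 77 in Ctrl.

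Barcodes were put in a marker-positive class where they held UMIs of at least 2 different markers of it, and of fewer markers of each other class. The general neuron class took barcodes where no other class reached 2. Of 21 classes, 7 had at least 50 barcodes in every library. The class with radial glia markers, the stem-cell-like glia of the fish brain, held 19.5% of the mt2 UMIs in Zn15, 31.5% in Zn10 and 16.0% in Ctrl. It led the 7 classes in the zinc libraries, while in Ctrl general neurons held more, 24.6%. The mt2 level of the radial glia class was 505 CPM in Zn15 (422 to 599), 1172 CPM in Zn10 (990 to 1378) and 1387 CPM in Ctrl (1218 to 1573).

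This class was spread over clusters of different names, so it is called mixed here, and its values may not be those of radial glia alone. Clusters of the same barcodes, described further on, put only 29.4% of it in Zn15, 26.1% in Zn10 and 27.7% in Ctrl into the radial glia-like clusters 2 and 16. The largest part, 29.7%, 38.3% and 32.7% in Zn15, Zn10 and Ctrl, lay in the oligodendrocyte precursor-like cluster 7. That cluster was named from 5 precursor markers, with radial glia next at 3. Of its barcodes, 162 of 296 in Zn15, 101 of 235 in Zn10 and 145 of 293 in Ctrl were in the class with radial glia markers. The oligodendrocyte precursor class had only 16, 22 and 11 barcodes in Zn15, Zn10 and Ctrl. Which name holds for these barcodes was not tested. Of the mt2 UMIs of the class, 48 of 130 in Zn15, 14 of 147 in Zn10 and 79 of 243 in Ctrl came from clusters 2 and 16. In Zn10, 75 came from cluster 7 and 30 from 2 barcodes of the endothelial-like cluster 1.

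For the class as a whole, the Zn15 over Ctrl ratio of mt2 was 0.364 (0.292 to 0.452), the Zn10 over Ctrl ratio 0.845 (0.684 to 1.04) and the Zn15 over Zn10 ratio 0.431 (0.337 to 0.549). In its barcodes in the radial glia-like clusters the Zn10 over Ctrl ratio was lower, 0.043 in cluster 2 (0.001 to 0.25), which held 1 mt2 UMI in Zn10 and 57 in Ctrl, and 0.372 in cluster 16 (0.172 to 0.772). In its barcodes in cluster 7 that ratio was 1.02 (0.748 to 1.40). The ratio of Zn15 over Zn10 also turned, at 2.40 in cluster 2 (0.308 to 108), 1.93 in cluster 16 (1.01 to 3.92) and 0.371 in cluster 7 (0.252 to 0.542). Only the Zn15 over Ctrl ratio lay below 1 in all 3 of these clusters, at 0.103 in cluster 2 (0.040 to 0.227), 0.718 in cluster 16 (0.418 to 1.26) and 0.380 in cluster 7 (0.263 to 0.543), where the interval of cluster 16 included 1.

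By mt2 CPM the 7 classes ran, in Ctrl, from radial glia over general neurons, newborn neurons, GABAergic neurons, cerebellar granule neurons and microglia or macrophages to oligodendrocytes, and the interval of each overlapped that of its neighbour. By share of barcodes with mt2 at 200 UMIs, cerebellar granule neurons came first in Ctrl with 12 of 60 barcodes, then GABAergic neurons with 24 of 168 and radial glia with 44 of 366. The order of the upper classes in Ctrl thus depended on the measure. In Zn15 and Zn10 the radial glia class had the highest share at 200 UMIs, with 6.86% and 6.90%.

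The neuronal classes among the 7 had a lower mt2 CPM in both zinc libraries than in Ctrl. Within Zn15, GABAergic neurons still had the highest mt2 CPM of the 7 classes, 512 against 505 in the radial glia class, with overlapping intervals. Of their 25 mt2 UMIs there, 11 came from 1 barcode, so this first place was not firm. In Zn10, 9 of their 24 mt2 UMIs came from 1 barcode. General neurons, which carried markers of neurons but of no single type, had 252 mt2 CPM in Zn15, 317 in Zn10 and 1108 in Ctrl, which gives ratios of 0.228 for Zn15 over Ctrl (0.170 to 0.299) and 0.286 for Zn10 over Ctrl (0.214 to 0.377). Newborn neurons had 451, 513 and 1024 CPM in Zn15, Zn10 and Ctrl, and ratios of 0.441 (0.330 to 0.584) for Zn15 over Ctrl and 0.501 (0.363 to 0.683) for Zn10 over Ctrl. Of their mt2 UMIs, 19 of 56 in Zn10 and 38 of 159 in Ctrl came from 1 barcode each. By cluster, that Ctrl barcode lay in the endothelial-like cluster 1, so its cell type is not firm. GABAergic neurons, the inhibitory cells, had 512, 391 and 883 CPM in Zn15, Zn10 and Ctrl. Their ratios were 0.580 (0.354 to 0.920) for Zn15 over Ctrl and 0.442 (0.268 to 0.708) for Zn10 over Ctrl. The cerebellar granule neuron class, of which 32.0%, 41.1% and 29.6% in Zn15, Zn10 and Ctrl lay in the cluster of that name, rested on 11, 12 and 25 mt2 UMIs in Zn15, Zn10 and Ctrl, with a Zn15 over Ctrl ratio of 0.288 (0.128 to 0.606) and a Zn10 over Ctrl ratio of 0.567 (0.260 to 1.17). Microglia or macrophages, the immune cells of the brain, had 144, 217 and 500 CPM in Zn15, Zn10 and Ctrl, but 32 of the 63 mt2 UMIs of the Ctrl class came from 1 barcode.

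Oligodendrocytes, the myelin-forming cells, had the lowest mt2 level of the 7 classes in Ctrl and in Zn10, with an interval that overlapped that of microglia or macrophages in both. They had 364 mt2 CPM in Zn15 (283 to 462), 206 in Zn10 (122 to 326) and 312 in Ctrl (246 to 389). The ratio was 1.17 for Zn15 over Ctrl (0.830 to 1.64), 0.662 for Zn10 over Ctrl (0.373 to 1.12) and 1.77 for Zn15 over Zn10 (1.04 to 3.15). At 200 UMIs a barcode, the shares of mt2-positive oligodendrocytes were 3.87% in Zn15, 4.30% in Zn10 and 4.38% in Ctrl. At that depth the order of Zn15 and Zn10 was the other way round, and all 3 shares lay within each other's counting error. Between 82.1% and 84.8% of the class lay in the oligodendrocyte-like cluster, while cluster 12, led by c6 and prdm8, gave 19 of its 68 mt2 UMIs in Zn15, 3 of 18 in Zn10 and 27 of 77 in Ctrl.

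Over the classes, mt2 was at least 1.5-fold lower in Zn15 than in Ctrl in 6 of the 8 with at least 50 barcodes in both libraries. The exceptions were oligodendrocytes and dividing cells, where the ratio of 0.984 (0.210 to 6.08) rested on few UMIs. For Zn10 over Ctrl it was 6 of 7 classes, the exception being the mixed class with radial glia markers. The ratio interval lay below 1 in 6 of the 8 classes for Zn15 over Ctrl. For Zn10 over Ctrl it did so in 4 of 7. There the intervals of oligodendrocytes, cerebellar granule neurons and the mixed class included 1. Among microglia or macrophages, 32 of 63 Ctrl mt2 UMIs came from 1 barcode. The share of all genes with enough UMIs that were at least 1.5-fold lower was taken within the 7 classes, without dividing cells. It lay between 16.5% and 21.8% for Zn15 over Ctrl and between 12.1% and 21.0% for Zn10 over Ctrl. The classes share their libraries, so their number is no count of replicates. Barcodes of no class, the largest group, had 438 mt2 CPM in Zn15, 534 in Zn10 and 1017 in Ctrl.

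**Figure D3:**
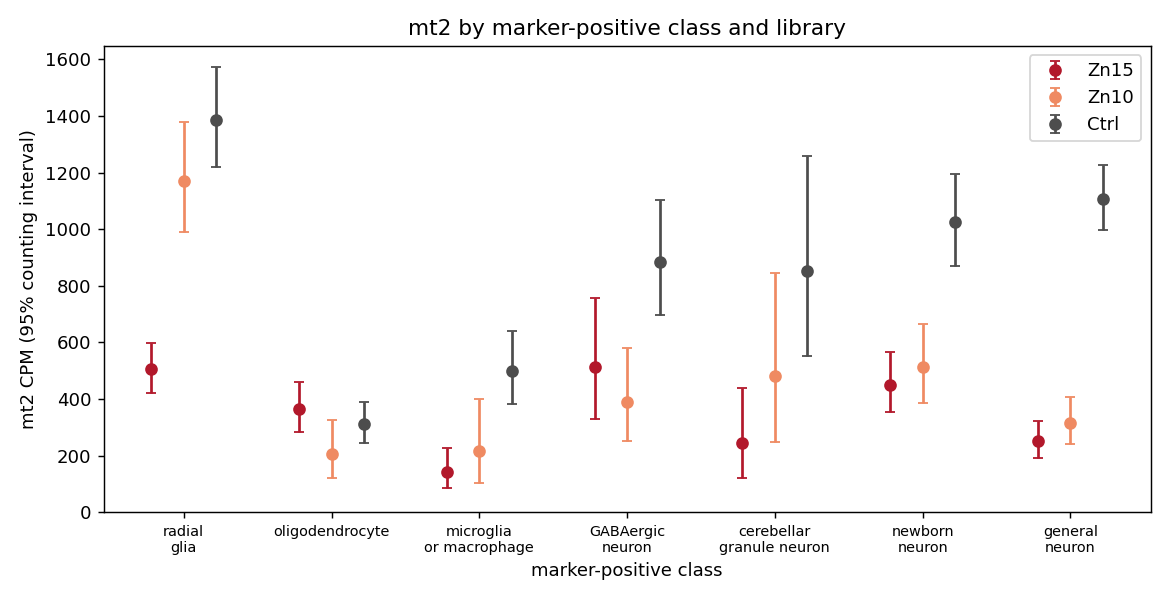
mt2 level in CPM (y axis) in the 7 marker-positive classes with at least 50 barcodes in every library, for Zn15, Zn10 and Ctrl from left to right within a class; bars are 95% counting intervals. The Ctrl points are highest in 6 classes; in oligodendrocytes the order is Zn15, Ctrl, Zn10 (364, 312 and 206 CPM), and the radial glia points of Zn10 and Ctrl lie close together (1172 and 1387 CPM).

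Leiden clusters, made without mt2 and mtbl, gave a finer division. Of 17 clusters, 10 could be named from markers and the others are given by number and leading genes. mt2 was highest by share of positive barcodes in cluster 12, led by c6, prdm8 and c7b, among the clusters with at least 50 barcodes in every library. Its share was 17.1% in Zn15, 21.0% in Zn10 and 28.4% in Ctrl, with 751, 962 and 2681 mt2 CPM in these libraries. At 200 UMIs a barcode, cluster 12 exceeded the other clustered barcodes by 2.39 times in Zn15 (1.40 to 3.87), 3.37 times in Zn10 (1.61 to 6.40) and 3.13 times in Ctrl (2.17 to 4.39). Cluster 12 thus lay above the pooled other barcodes in all 3 libraries, but not above each cluster of at least 50 barcodes in every library. At 200 UMIs in Zn15, cluster 4, led by tbr1b, held mt2 in 11.1% of barcodes against 10.7% in cluster 12. By CPM, cluster 7 was above it in Zn15, clusters 1, 7 and 4 in Zn10, and cluster 1 in Ctrl. A smaller radial glia-like cluster, 16, had mt2 UMIs in 29.0% of its 62 Zn15 barcodes, in 24.2% of 33 in Zn10 and in 32.1% of 28 in Ctrl. The other radial glia-like cluster, 2, had 5.24%, 2.47% and 12.7% in Zn15, Zn10 and Ctrl. Its barcodes were shallower, with medians of 322, 267 and 280 UMIs against 489, 553 and 502 in cluster 16. At 200 UMIs a barcode, cluster 16 held mt2 in 17.7%, 6.67% and 17.9% of barcodes in Zn15, Zn10 and Ctrl. Cluster 2 held it in 3.91%, 1.56% and 8.13%. The cluster 16 shares rested on 2 and 5 positive barcodes in Zn10 and Ctrl, so only Zn15 set the clusters well apart. Against the other clustered barcodes, the CPM of cluster 16 was 2.85 times as high in Zn15 (2.02 to 3.92), 1.2 times in Zn10 (0.634 to 2.07) and 1.65 times in Ctrl (1.04 to 2.48). That of cluster 2 was 0.487 times in Zn15 (0.277 to 0.798), 0.307 times in Zn10 (0.083 to 0.792) and 1.13 times in Ctrl (0.866 to 1.45).

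Oligodendrocyte precursor-like barcodes, cluster 7, had the next highest share. They held 892 mt2 CPM in Zn15, 1205 in Zn10 and 1641 in Ctrl. Ratios to Ctrl were 0.544 for Zn15 (0.438 to 0.673) and 0.734 for Zn10 (0.590 to 0.911). Their CPM was above that of the other clustered barcodes in every library, by 2.45 times in Zn15, 3.03 times in Zn10 and 1.90 times in Ctrl, while the equal-depth share intervals all included 1. The endothelial-like cluster, 1, looked highest of all in Ctrl at 2819 CPM, but 38 of its 43 mt2 UMIs there came from 1 barcode. By markers that barcode was in the newborn neuron class. In Zn15 and Zn10 it held 8 and 37 mt2 UMIs.

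The cerebellar granule neuron-like cluster, 10, had the lowest mt2 CPM in both zinc libraries among clusters with at least 50 barcodes, in Zn10 with clusters 6 and 17 close above it. It held an mt2 UMI in 0 of 183 barcodes in Zn15, which allows a share of up to 1.64%, in 1 of 107 in Zn10 and in 9 of 162 in Ctrl. Its barcodes were shallow, with medians of 196, 201 and 185.5 UMIs in Zn15, Zn10 and Ctrl. No cell type that surely lacks mt2 was at hand to set the share that free RNA in droplets can give, so low shares of other clusters cannot be told apart from such background.

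Among 15 clusters with at least 50 barcodes in every library, the mt2 CPM was lower in Zn15 than in Ctrl in 14, at least 1.5-fold in 13. The exception was the oligodendrocyte-like cluster, 13, with 299 CPM in Zn15, 209 in Zn10 and 187 in Ctrl and a Zn15 over Ctrl ratio of 1.60 (1.03 to 2.48). Its share of mt2-positive barcodes was 9.29% in Zn15, 6.19% in Zn10 and 4.37% in Ctrl; at 200 UMIs it was 4.27%, 4.14% and 2.87%, with a Zn15 over Ctrl ratio of 1.49 and an interval of 0.669 to 3.32 that includes 1. For Zn10 over Ctrl, 13 of 15 clusters were lower, 12 of them at least 1.5-fold; cluster 13 stood at 1.12 (0.575 to 2.06) and cluster 4, led by tbr1b, emx3 and eomesa, at 1.02 (0.752 to 1.38). In cluster 4, 34 of the 73 mt2 UMIs of Zn10 came from 1 barcode, and its share of positive barcodes was 6.19% in Zn10 against 16.7% in Ctrl. The share of mt2-positive barcodes had a ratio interval below 1 in 6 of 15 clusters for Zn15 over Ctrl and in 7 for Zn10 over Ctrl. At 200 UMIs a barcode that held in 8 and 6 clusters. The clusters share their libraries, so their number is no count of replicates, and the share of all genes past 1.5-fold was not taken within clusters. For Zn15 over Zn10, only 7 of 15 clusters were lower in mt2 CPM.

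**Figure D4:**
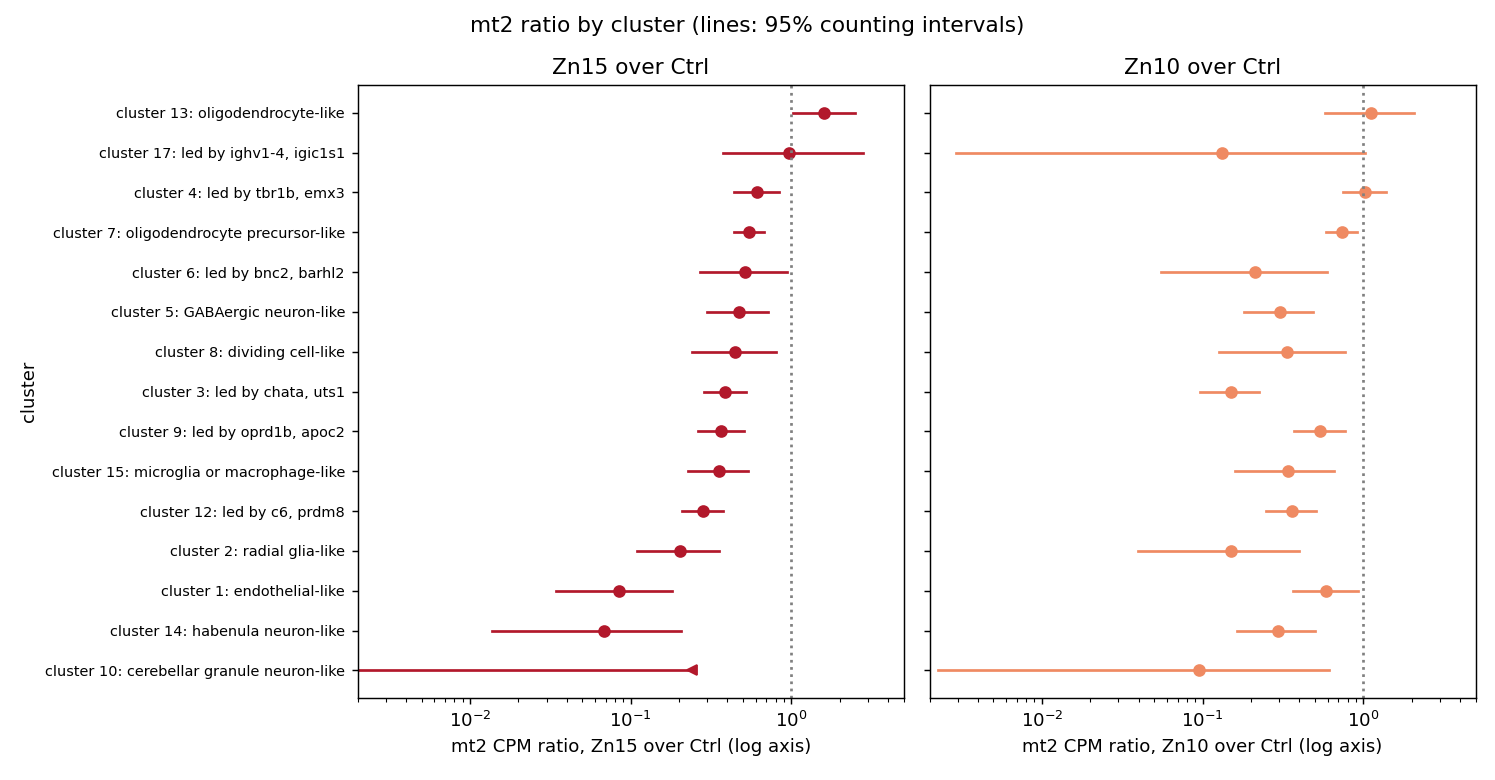
Ratio of mt2 CPM (x axis, log scale) of Zn15 over Ctrl (left) and Zn10 over Ctrl (right) in the 15 clusters with at least 50 barcodes in every library; points are ratios, lines 95% counting intervals, the dotted line a ratio of 1, and the triangle the upper limit where Zn15 had 0 mt2 UMIs. Points lie left of the dotted line in 14 clusters on the left and 13 on the right, with the oligodendrocyte-like cluster at 1.60 and 1.12.

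mtbl was rare, and its level in the 3 libraries could not be told apart by counting error. It was counted in 22 UMIs in Zn15, 15 in Zn10 and 35 in Ctrl, which is 13.5 CPM in Zn15 (8.43 to 20.4), 15.4 in Zn10 (8.61 to 25.4) and 20.6 in Ctrl (14.4 to 28.7). The ratio was 0.653 for Zn15 over Ctrl (0.365 to 1.15), 0.747 for Zn10 over Ctrl (0.379 to 1.40) and 0.875 for Zn15 over Zn10 (0.434 to 1.81). All these intervals include 1. The mt2 ratios of Zn15 and Zn10 to Ctrl lie inside the mtbl intervals, so at this depth a ratio of that size was not detectable for mtbl. Each mtbl-positive barcode held 1 UMI, apart from 1 Zn10 barcode with 2. At so few UMIs this says little of how mtbl is spread.

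The mtbl UMIs came mainly from oligodendrocytes in every library. The marker-positive oligodendrocyte class held 15 of 22 mtbl UMIs in Zn15, 8 of 15 in Zn10 and 22 of 35 in Ctrl. A mtbl UMI was found in 2.98% of oligodendrocyte barcodes in Zn15, 2.65% in Zn10 and 3.01% in Ctrl. In all other barcodes the share was 0.151%, 0.271% and 0.263% in Zn15, Zn10 and Ctrl. How much of this share free RNA in droplets gave was not tested. Median depth was 289, 255 and 261.5 UMIs in oligodendrocyte barcodes of Zn15, Zn10 and Ctrl, and 252, 273.5 and 237 in the others. The level of the class was 80.3 CPM in Zn15, 91.7 in Zn10 and 89.1 in Ctrl.

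Against the other barcodes of its own library, the oligodendrocyte CPM of mtbl was 16.6 times as high in Zn15 (6.38 to 48.2), 11.6 times in Zn10 (3.68 to 37.7) and 9.95 times in Ctrl (4.80 to 21.5). At 200 UMIs a barcode the share ratio was 15.9 in Zn15 (4.25 to 72.0), 4.95 in Zn10 (0.447 to 34.5) and 13.0 in Ctrl (4.15 to 47.6), so the equal-depth interval of Zn10 included 1. The oligodendrocyte-like cluster, found without mtbl, gave 13, 8 and 19 mtbl UMIs in Zn15, Zn10 and Ctrl and shares of 3.10%, 3.10% and 3.07%. Within oligodendrocytes the ratios of mtbl CPM between libraries were 0.902 for Zn15 over Ctrl (0.435 to 1.82) and 1.03 for Zn10 over Ctrl (0.396 to 2.40). The mtbl level within oligodendrocytes thus showed no detectable difference at this depth, and the intervals allow ratios from 0.396 to 2.40.

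**Figure D5:**
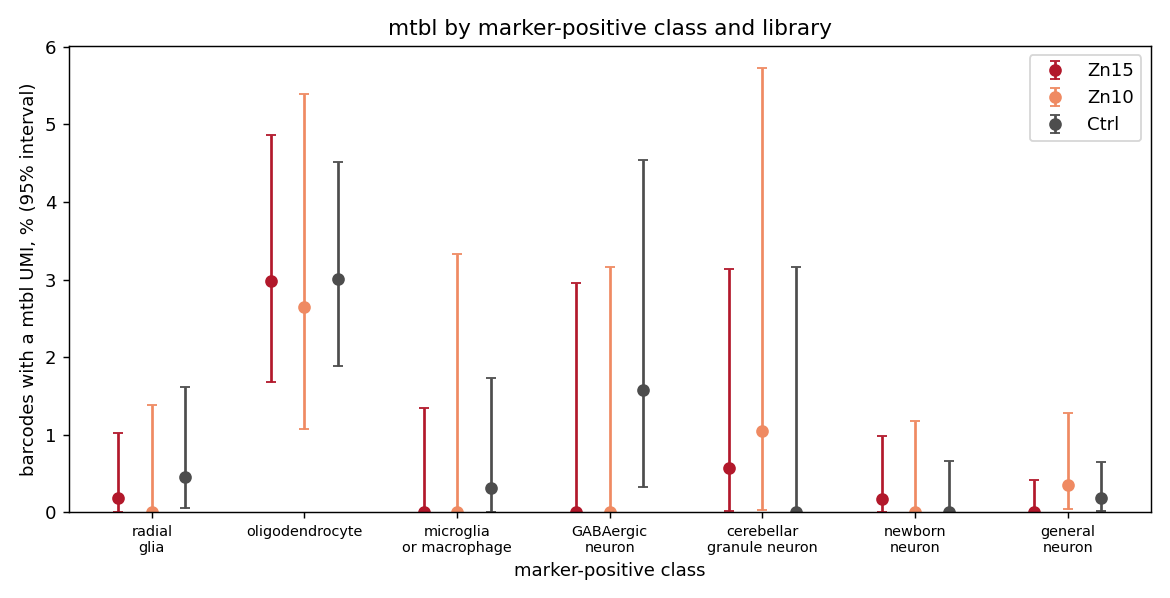
Share of barcodes with a mtbl UMI (%, y axis) in the 7 marker-positive classes with at least 50 barcodes in every library, for Zn15, Zn10 and Ctrl from left to right; bars are 95% exact intervals. Oligodendrocytes stand at 2.98%, 2.65% and 3.01% in Zn15, Zn10 and Ctrl, and the other classes rest on 0 to 3 positive barcodes each.

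In Ctrl, oligodendrocytes had the lowest mt2 CPM of the 7 classes and the highest mtbl CPM. By share of barcodes with mt2 at equal depth, microglia or macrophages were lowest in Ctrl, with 3.94% against 4.38% in oligodendrocytes. Of the 63 mt2 UMIs of Ctrl microglia or macrophages, 32 came from 1 barcode, so the lowest place in mt2 was not firm. The mt2 CPM of Ctrl oligodendrocytes was 0.313 times that of the other barcodes (0.246 to 0.394). In Zn10 this ratio was 0.409 (0.240 to 0.653) and in Zn15 0.880 (0.675 to 1.13). Both genes were found in the same barcode in 3 of 22 mtbl-positive barcodes in Zn15, 0 of 14 in Zn10 and 6 of 35 in Ctrl. mt2 lies within the span of nup93, a nuclear pore gene, in the RefSeq annotation of assembly GRCz12tu, while the counts were made on GRCz11. No source used here says how reads of overlapping genes were assigned. Whether reads of 1 gene were counted for the other was not tested. A nup93 UMI was found in 6 of 341 mt2-positive barcodes in Zn15, 4 of 155 in Zn10 and 28 of 598 in Ctrl. Over all barcodes it was found in 123 of 5154 in Zn15, 81 of 2850 in Zn10 and 161 of 5679 in Ctrl. The level of nup93 was 82.6 CPM in Zn15, 101 in Zn10 and 105 in Ctrl.

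The genes that sense and transport zinc were mostly within 1.5-fold of Ctrl. mtf1 itself was counted in only 5 UMIs in Zn15, 3 in Zn10 and 11 in Ctrl. slc30a1a, which encodes a zinc exporter of the plasma membrane and is an MTF1 target in mammals, had 110 CPM in Zn15, 104 in Zn10 and 129 in Ctrl, with ratios of 0.854 for Zn15 over Ctrl (0.697 to 1.04) and 0.804 for Zn10 over Ctrl (0.628 to 1.02). Of 7 counted genes of metal sensing and MTF1 targets other than metallothioneins, 0 were at least 1.5-fold higher and 1 lower in Zn15 than in Ctrl, and 0 higher and 2 lower in Zn10. Over all genes, 14.2% were lower and 11.4% higher for Zn15 over Ctrl, and 10.7% lower and 16.4% higher for Zn10 over Ctrl. The list is too short for its counts to stand apart from these shares. The median log2 ratio of the 7 genes was -0.16 for Zn15 over Ctrl and -0.22 for Zn10 over Ctrl, beside -0.06 and 0.09 for all genes. The gene low in both was hamp, for the iron hormone hepcidin, with 9 UMIs in Zn15, 6 in Zn10 and 47 in Ctrl.

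Of 10 counted zinc transporters, 2 were at least 1.5-fold higher and 1 lower in Zn15 than in Ctrl, and 2 higher and 0 lower in Zn10. Higher in both was slc30a7, a transporter into the secretory pathway, with 42.2 CPM in Zn15, 41.0 in Zn10 and 26.5 in Ctrl. Its ratio was 1.59 for Zn15 over Ctrl (1.08 to 2.37) and 1.55 for Zn10 over Ctrl (0.986 to 2.43). These counts lie near the shares of all genes given above, and the lists are small.

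The other known inducers of metallothioneins were read through their own genes. Over all genes 14.2% were at least 1.5-fold lower and 11.4% higher for Zn15 over Ctrl, and 10.7% lower and 16.4% higher for Zn10 over Ctrl, and the lists are too short for their counts to stand apart from these shares. Of 18 antioxidant genes, 0 were at least 1.5-fold higher and 2 lower in Zn15 than in Ctrl, and 1 higher and 2 lower in Zn10; sod2, the mitochondrial superoxide dismutase, had 13, 11 and 29 UMIs in Zn15, Zn10 and Ctrl. Of 9 genes of copper and iron handling, 0 were higher and 2 lower in Zn15, and 3 higher and 1 lower in Zn10. Of 10 glucocorticoid response genes, 1 was higher and 2 lower in Zn15, and 0 higher and 1 lower in Zn10; per1a, a clock gene, had 14, 11 and 32 UMIs in Zn15, Zn10 and Ctrl. Of 8 genes of STAT3 and cytokine signalling, 2 were higher and 0 lower in each zinc library. These were socs3a, a feedback inhibitor of cytokine signalling, at 108, 94.4 and 60.6 CPM in Zn15, Zn10 and Ctrl, and junbb, a transcription factor gene, at 18.4, 21.5 and 7.65 CPM.

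Heat shock genes had the lowest median log2 ratios of these lists, -0.34 for Zn15 over Ctrl and -0.40 for Zn10 over Ctrl, with 1 higher and 2 lower of 14 in Zn15 and 2 higher and 2 lower of 13 in Zn10. The counts lie near the all-gene shares. hsp70l, a stress-inducible chaperone gene, had 3362 CPM in Zn15, 4307 in Zn10 and 6663 in Ctrl. Its ratios of 0.505 for Zn15 over Ctrl (0.489 to 0.521) and 0.646 for Zn10 over Ctrl (0.624 to 0.670) were near those of mt2. serpinh1b, a collagen chaperone gene, went the other way, with 23.2, 20.5 and 8.83 CPM in Zn15, Zn10 and Ctrl. Lower hsp70l moved with lower mt2 across these libraries, but the genes of the list did not all fall with it. This pairing is of 1 gene over 3 libraries, and the part of hsp70l in the mt2 difference was not tested.

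Barcodes rich in mt2, with 5 or more UMIs of it, were also deeper than those without mt2. Their median was 535 UMIs against 251 in Zn15, 575 against 268 in Zn10 and 527 against 235 in Ctrl. malat1 took more of their UMIs, 43.9% against 31.9% in Zn15, 32.3% against 26.7% in Zn10 and 38.4% against 28.8% in Ctrl, and mitochondrial RNA less, 0.112% against 0.209% in Zn15, 0.0591% against 0.0925% in Zn10 and 0.126% against 0.216% in Ctrl. The class with radial glia markers took 6 of 23 mt2-rich barcodes in Zn15, 9 of 23 in Zn10 and 17 of 71 in Ctrl, against 10.0%, 8.61% and 7.24% of those without mt2 in these libraries. Choosing barcodes by 5 or more mt2 UMIs favours deep ones, and a class call needs 2 markers and so grows with depth too. The part of depth or RNA quality in these differences was not tested.

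hsp70l did not mark the same barcodes in every library: mt2-rich barcodes had 4881, 2339 and 6763 hsp70l CPM in Zn15, Zn10 and Ctrl, against 3316, 4282 and 6748 in barcodes without mt2. Other genes were compared only where they had 5 or more UMIs in the mt2-rich barcodes of each library, a filter that favours genes high there, so the ratios are descriptions. The highest by its smallest ratio was si:dkey-183j2.10, a leading gene of the radial glia-like cluster 16, with 5 UMIs in mt2-rich barcodes of Zn15, 25 of Zn10 and 13 of Ctrl and CPM ratios to the other barcodes of 2.52, 10.4 and 7.12. Next was hsph1, a chaperone gene of the Hsp110 family, with 8, 8 and 31 UMIs and ratios of 2.51, 2.14 and 2.72 in Zn15, Zn10 and Ctrl. The others of the highest 10 were CT956002.2, wbp2, tenm4, pcdh19, vegfaa, atp1b4, cdh11 and egr4, with smallest ratios between 1.43 and 1.97. Within the class with radial glia markers, cpeb4b, for a translation regulator, led with 5, 10 and 15 UMIs and ratios of 1.90, 2.87 and 2.71 in Zn15, Zn10 and Ctrl, before si:dkey-183j2.10. Behind them came itm2ba, map1ab, aldocb, malat1, fosab, pnrc2, midn and ddx6, whose smallest ratios lay between 0.867 and 1.25. slc30a1a rested on 2, 4 and 13 UMIs in these barcodes.

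Over 23 points, each a class in 1 library, the genes most like mt2 by Pearson r of log2(CPM + 10) were rflnb (r = 0.756), si:ch211-113g11.6, atcaya, plk3, rergla, plk2b, cacng8b and arnt2 (0.658), among 2652 genes whose median r was 0.107. Of these, plk3, a polo-like kinase gene, also lay well below Ctrl in both zinc libraries, at 637 CPM in Zn15, 570 in Zn10 and 1215 in Ctrl. Those most like mtbl were ly75 (r = 0.901), lnpep, arhgap23a, cdaa, elovl7a, si:dkey-200l5.4, pla1a and rabac1 (0.797). Outside the oligodendrocyte class each mtbl point rests on at most 3 UMIs, so its r values mainly set that class against the others. Of the genes most like mtbl, cdaa, si:dkey-200l5.4 and pla1a are leading genes of the oligodendrocyte-like cluster 13. The points share libraries and classes, so all these r values are descriptions.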

How the data were processed

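The deposited values are UMI counts, whole numbers by gene and droplet barcode with no normalization, for 3 libraries. Per the file headers they were written by Cell Ranger 4.0.0; per the submitters' processing notes fastp, Seurat and the genome build GRCz11 were also used. How cells were called, the annotation release and whether introns were counted is not given in the sources used here. A gene name table paired 28988 of the 32057 identifiers with a symbol, and gives mt2 another one (MT1X). The deposited symbols are used, except that the gene with the deposited symbol CR383676.2 is called malat1.

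From these counts, CPM, shares and ratios were computed over all barcodes, with exact Poisson, Clopper-Pearson and conditional binomial intervals at 95%, by Python 3.11.15, numpy 2.4.6 and scipy 1.17.1. The ratios and their intervals were checked on simulated library totals, and the class rule on a small made-up example. The simulated counts were drawn independently, so the check does not cover UMIs clustered in few barcodes. Barcodes of 100 or more genes, with up to 30% mitochondrial UMIs, were clustered with scanpy 1.11.5 (counts scaled to 300 UMIs, 2000 variable genes, 30 components, 15 neighbours, resolution 1.0). A cluster was named where at least 3 markers of a class were 2-fold higher with 15 or more UMIs, at least 1 of them among its 10 leading genes, and more than for any other class; cluster 3 was left unnamed by hand for its leading genes chata, uts1 and trh. Doublets were not removed and free RNA was not corrected. A gene with no UMI has a floor of 3 counts.

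Genes of the lists are named where they had 50 or more UMIs over the 3 libraries and were 1.5-fold different from Ctrl in the same direction in both zinc libraries, plus mtf1 and slc30a1a. The 8 genes most like mt2 and most like mtbl, with 200 or more UMIs, and no class marker, are named too, and so are the 10 genes with the highest smallest ratio, over the libraries, of mt2-rich over other barcodes (5 or more UMIs in the mt2-rich ones of each library), over all barcodes and within radial glia. Members, lists and rules were chosen with earlier results of these data known; the naming of clusters, the split of classes over clusters, the listing of clusters as well as classes for a closer look, the abundance comparison of concentration and the ranking at 500 UMIs were set after the values were seen.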

Additional observations from a re-analysis of the deposited data

Results flagged for a closer look

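In these classes and clusters mt2 was higher, with an interval above 1, in a pair of libraries in which others were lower. The differences between classes or clusters were not tested. For Zn15 over Zn10 the clusters were divided, with 7 of 15 below 1. The marker-positive oligodendrocyte class had a Zn15 over Zn10 CPM ratio of 1.77 (1.04 to 3.15). The mixed class with radial glia markers had 0.431. Its barcodes in the radial glia-like clusters 2 and 16 had 2.40 (0.308 to 108) and 1.93 (1.01 to 3.92). Those in the oligodendrocyte precursor-like cluster 7 had 0.371 (0.252 to 0.542). The oligodendrocyte-like cluster, 13, had a Zn15 over Ctrl ratio of 1.60, from 48 mt2 UMIs in Zn15 and 41 in Ctrl. Cluster 3, led by chata, uts1 and trh, had a Zn15 over Zn10 ratio of 2.59 (1.59 to 4.31), from 54 and 26 mt2 UMIs, of which 17 in Zn15 came from 1 barcode. Cluster 17, led by ighv1-4 and igic1s1, had a Zn15 over Zn10 ratio of 7.31 (1.14 to 307), from 16 UMIs in 5 barcodes of Zn15 and 1 UMI in Zn10. The share ratios of these pairs at 200 UMIs a barcode all had intervals that included 1. They were 0.899 in the oligodendrocyte class (0.358 to 2.45), 1.49 in cluster 13 (0.669 to 3.32), 1.65 in cluster 3 (0.543 to 5.52) and 1.33 in cluster 17 (0.107 to 69.7).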

How the results depend on the processing

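Of 76 alternative values, 56 stayed within counting error, 18 moved and 2 reversed. Of the 56, 2 had the other sign, both for mtbl in Zn15 over Zn10, whose interval includes no difference. For mt2 the log2 ratio ran from -1.55 to -0.76 for Zn15 over Ctrl and from -1.56 to -0.80 for Zn10 over Ctrl over 8 alternatives each, so both stayed below 0. Barcodes with at least 200 genes gave -1.55 for Zn15 over Ctrl and -0.53 for Zn15 over Zn10. Counting each barcode as at most 1 mt2 UMI gave -0.76, -1.15 and 0.39 for Zn15 over Ctrl, Zn10 over Ctrl and Zn15 over Zn10, and leaving out the highest 1% of barcodes gave -1.56 for Zn10 over Ctrl and 0.31 for Zn15 over Zn10. By their construction these 2 settings limit the barcodes rich in mt2, and under both the zinc libraries changed order. Thinning to 200 UMIs gave -0.44 for Zn15 over Zn10 and mt2 shares of 4.73%, 4.05% and 9.34% in Zn15, Zn10 and Ctrl; asking for 2 UMIs gave 2.1%, 2.11% and 4.12%. For mtbl, asking for 2 UMIs gave 0%, 0.0351% and 0%; its log2 ratios ran from -0.61 to -0.35, -0.90 to -0.09 and -0.36 to 0.32 for Zn15 over Ctrl, Zn10 over Ctrl and Zn15 over Zn10. Among genes with at least 100 UMIs, 14.1%, 15.1% and 15.1% were past 1.5-fold for these pairs, against 25.6%, 27.2% and 27.6% with 20. The mtbl ratio without the highest 1% of barcodes was not run, since that removes every mtbl UMI. No paired analysis was possible because each treatment has 1 library and no test was made. With medians of 240 to 271 UMIs per barcode, an absent UMI does not show that a gene is off.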
